A study of Rattus norvegicus with 32 samples.

Results

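The genes described here encode the G protein subunits and the second messenger enzymes that act downstream of neurotransmitter receptors: adenylyl cyclases, protein kinase A, cyclic nucleotide phosphodiesterases, phospholipase C beta, protein kinase C, calmodulin-dependent kinases and calcineurin. They were measured in the nucleus accumbens, the ventral part of the striatum, of male Sprague-Dawley rats. The animals received METH (methamphetamine, a drug that makes nerve terminals release dopamine) at 20 mg/kg once, or saline once, and were killed 1 h later. Members were the array probes whose gene symbol marked one of these families, without Pde10a, Pde1b and Adcy5, and which were above background (detection p under 0.05) on at least 4 of the 9 arrays at 1 h. The symbols picked out 92 probes of 22523, of which 65 passed this filter, each for a different gene (of 7203 genes with a tested probe), and 59 of the 65 were above background on all 9 arrays. The other 27 probes were not tested, and 17 of them were above background on no array. The single probe at the limit of the filter, Pde12, was above background on 4 arrays, and 3 probes lay just outside it with 3 arrays each. They were the probe of Prkci and both probes of Gnas.

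In the striatum, dopamine receptors act on cyclic AMP through G proteins. D1 receptors couple to Golf, whose alpha subunit is the product of Gnal and which works with the gamma subunit encoded by Gng7, and this complex raises adenylyl cyclase activity. D2 receptors act through Gi and Go proteins, of which Gi lowers this activity. Cyclic AMP releases the catalytic subunits of protein kinase A from its regulatory subunits, phosphodiesterases break cyclic AMP and cyclic GMP down, and calcium acts through calmodulin on kinases and on the phosphatase calcineurin.

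The 9 arrays lay on 2 slides and held 5 METH and 4 saline arrays, all from rats of the same strain, weight range and time after injection. Slide 1 held arrays 1 and 2 of each group. Slide 2 held saline arrays 3 and 4 and METH arrays 3 to 5, so values within a slide rest on few arrays. Per array, 41.5% to 47.3% of all probes were above background. Before normalization the mean intensity was 164.3 to 187.8 on the saline arrays and 187.9 to 231.4 on the METH arrays. Every METH array was thus brighter than every saline array, so overall brightness and treatment cannot be told apart in unscaled values. Precision is limited by how many arrays there were. The labels give 5 rats per group and do not tie arrays to rats, so the p-values reflect array-to-array spread, which may be technical. Values are normalized log2 intensities, differences are METH minus saline on that scale, and dim probes have their differences understated by an offset added before the logarithm. All 8 measured markers of striatal projection neurons were above background on all 9 arrays, among them Ppp1r1b, Drd1, Drd2, Adora2a and Penk. The arrays differed in their tissue markers. The median of the 8 striatal markers, relative to the saline mean, spanned -0.29 to 0.17 with saline. METH arrays 1 to 5 stood at -0.36, -0.22, -0.58, -0.42 and -1.13. All 8 had a negative log2 fold change, with a list median of -0.54, and 7 of them had an unadjusted p under 0.05. For the 7 measured markers of cortical glutamatergic neurons, this median spanned -0.36 to 0.48 with saline. METH arrays 1 to 5 stood at 0.64, -0.20, 0.96, 1.91 and 1.98. Of these 7, 6 had a positive log2 fold change, with a list median of 1.02. The brightest, Lamp5, had a negative one, at -0.35. Of the 7, 3 were above background on all 9 arrays. Neurod1 and Neurod2 were above background on 1 of 4 saline arrays each, and on 3 and 4 of 5 METH arrays. Both thus passed the filter mainly through METH arrays. Slc17a7, a defining one, was above background on 2 of 4 saline and 4 of 5 METH arrays. METH array 5 was thus the lowest in the striatal list and, with METH array 4, the highest in the cortical list, while METH array 2 was the METH array nearest to saline in both. In the other lists the median log2 fold change was 0.17 for 13 genes of neurons in general, -0.068 for 7 of astrocytes, 0.081 for 7 of oligodendrocytes, -0.29 for 5 of microglia and -0.19 for 2 of endothelium. The part of these shifts in the results below was not tested, and values without METH array 2 or 5 are given below where they bear on a named member. In whole tissue, fewer cells of a type and less RNA per cell cannot be told apart.

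No member changed past the threshold 1 h after METH. Of 65 members, 0 passed an adjusted p of 0.05 in limma (Benjamini-Hochberg, over the 9987 probes tested), where 0.521% of all probes passed, 52 in number. Of all probes, 0.491% passed with METH higher and 0.03% with METH lower, 49 and 3 probes, a split that the setting changed (159 and 92 with array weights, 186 and 64 without METH array 2). At an unadjusted p under 0.05 there were 9 members, or 13.8%, beside 11% of all probes, so the share was near the background. Of these 9, 2 had a positive difference, or 3.08% of the members, beside 5.33% of all probes. The other 7 had a negative one, or 10.8% of the members, beside 5.66% of all probes. The median log2 fold change of the members was 0.046, beside -0.023 for all probes tested. A positive difference was found for 38 members and a negative one for 27, beside 4566 and 5421 of the 9987 probes. Among the members the range ran from -0.85 (Gng7) to 0.44 (Gnaz). For 60 of 65 members the 95% interval lay within 1 on either side on the log2 scale, that is, within a 2-fold difference. For 37 it lay within a 1.5-fold difference (95% and 67.9% of all probes). These intervals hold for the normalized scale, where differences of dim probes are understated. They do not bound the RNA difference of dim members. The 5 members whose interval reached a 2-fold difference were Gng7, Gng11, Gnal, Prkch and Prkcd, each on the negative side. Without METH array 5, the lowest in the striatal list, the count was 1 of 65, where 0.701% of all probes passed. It was also 1 of 65 without METH array 2, where 2.5% passed. That fit keeps the METH arrays farther from saline in the marker lists. In both cases the 1 member was Gng7.

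**Figure D1:**
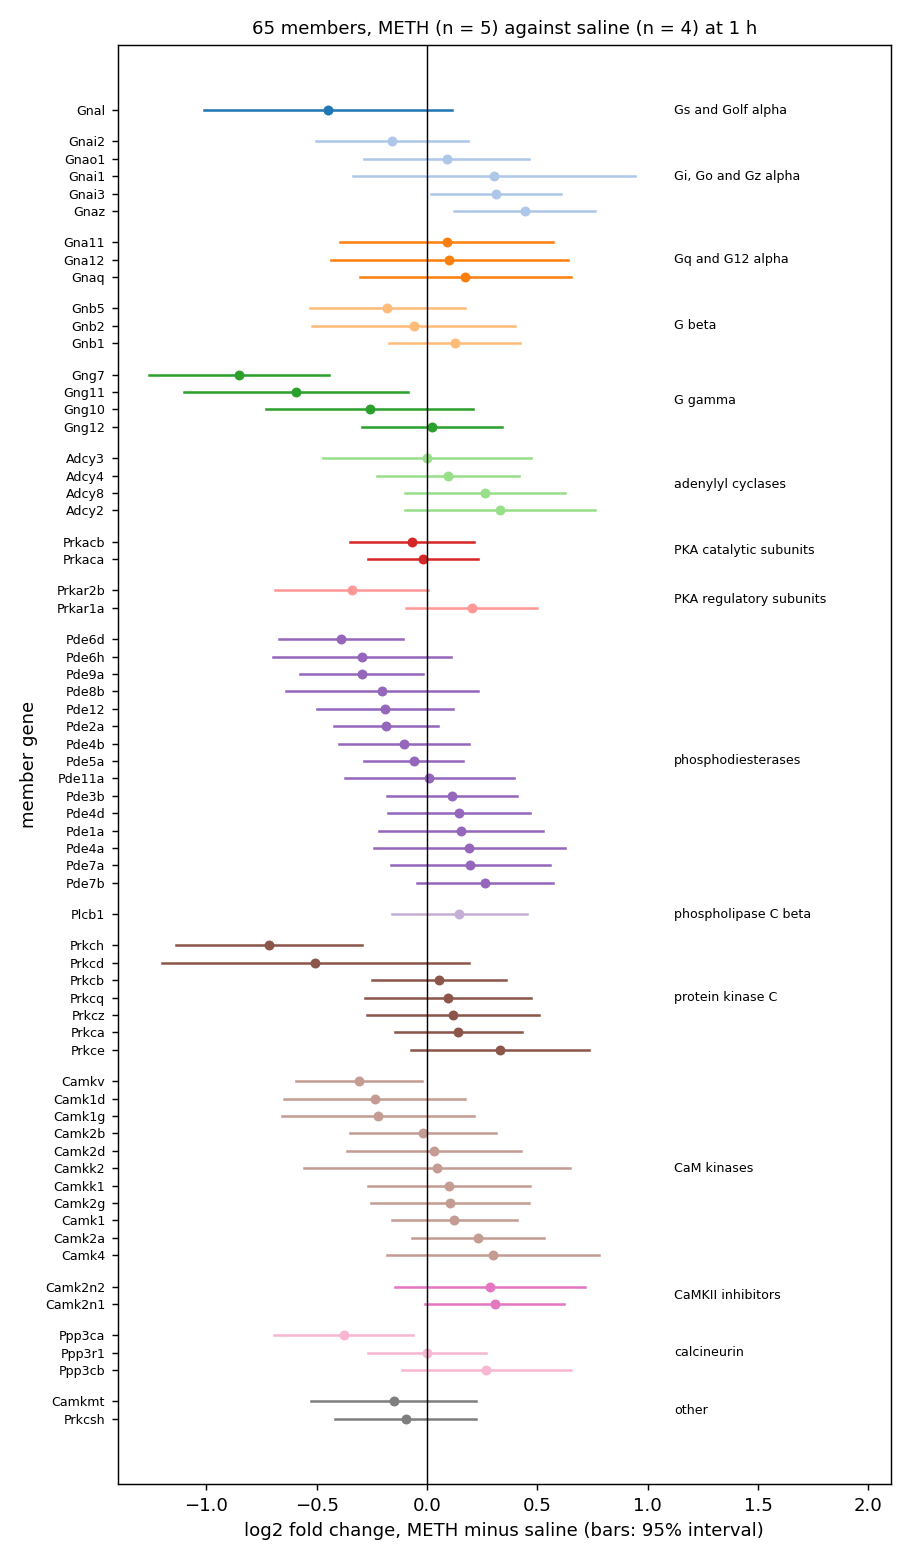
Log2 fold change (METH minus saline, x axis) of each of the 65 members (y axis, grouped by role), with points for the estimate and bars for the 95% interval of the limma fit over 5 METH and 4 saline arrays. Gng7 at -0.85 lies farthest to the left and Gnaz at 0.44 farthest to the right, and most intervals include 0.

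The groups separated completely for 4 members, or 6.15%, where 4.26% of all probes did. All 4 had METH lower, where 2.29% of all probes did. They were Gng7, Prkch, Pde6d and Camkv. No member had all METH arrays above all saline arrays, where 1.96% of all probes did. By a weaker criterion, 12 members (18.5%) had all 5 METH arrays below the saline mean, where 11.3% of all probes did, and 7 (10.8%) had all 5 above it, where 8.18% did.

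Gng7 encodes the gamma subunit that pairs with Golf in striatal neurons, and it had the smallest p of the members. Its normalized log2 intensity was 10.57, 10.44, 10.61 and 10.46 on saline arrays 1 to 4 and 10.03, 9.85, 9.47, 9.97 and 9.02 on METH arrays 1 to 5. The highest METH array was thus below the lowest saline array, and METH array 5 was the lowest. The mean was 10.52 ± 0.08 (SD, n = 4) with saline and 9.67 ± 0.42 (SD, n = 5) with METH. The log2 fold change was -0.85 ± 0.19 SE, a METH level of 0.554 of that with saline, with a 95% interval of -1.26 to -0.44 and an adjusted p of 0.09, so Gng7 did not pass. Without METH array 5 the log2 fold change was -0.69 (limma adjusted p = 0.025), and without METH array 2 it was -0.89 (adjusted p = 0.04). In both of these subsets Gng7 passed, while over the 9 leave-one-out fits the adjusted p ranged from 0.025 to 0.293. The log2 fold change was -0.57 within slide 1 and -1.05 within slide 2, which held METH array 5. With slide as a block it was -0.83 (limma adjusted p = 0.079). METH array 5, where Gng7 was lowest, was also where the median of the striatal markers was lowest, at -1.13, and the part of those markers' shift in the value of Gng7 was not tested.

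**Figure D2:**
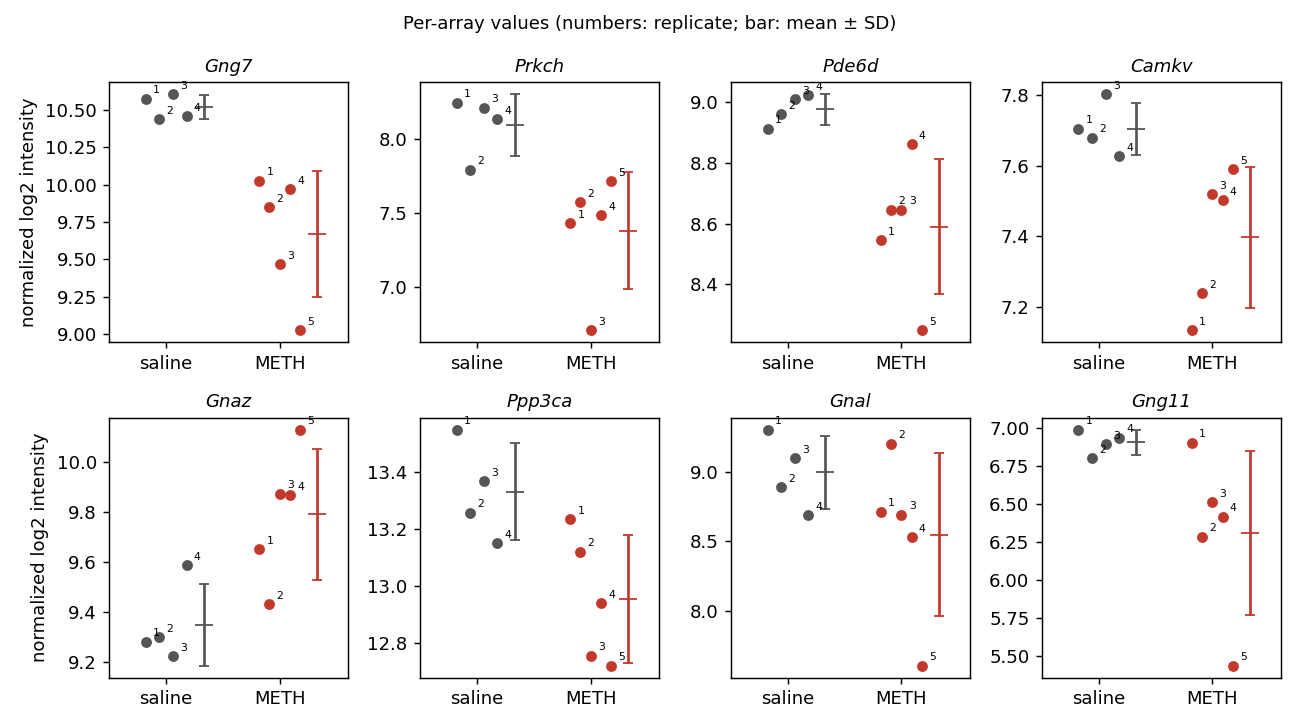
Normalized log2 intensity (y axis, a separate range for each gene) of 8 members on the 4 saline arrays (grey) and 5 METH arrays (red). Small numbers give the replicate, and bars give the mean and SD. The groups do not overlap for Gng7, Prkch, Pde6d and Camkv, and METH array 5 is the lowest array for Gng7, Gnal, Gng11, Pde6d and Ppp3ca.

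The start of the Gng7 gene is shown because Gng7 had the smallest p among the members, and that of Gnao1 because its window held the other motif searched. The sequences are RefSeq promoters of the GRCr8 assembly, 250 bases before to 50 after the start site, written 5′ to 3′ on the gene's strand. RefSeq promoters were found for 50 of the 65 genes, with 61 start sites. The motifs searched on both strands were the cyclic AMP response element TGACGTCA, which CREB binds, and GCGTGGGCG, which Egr transcription factors bind, and they do not overlap each other here. Capitals mark the match, which for Gng7 is on the opposite strand. Gng7 lies at chr7:9365139-9365438 on the plus strand, and Gnao1 at chr19:11198388-11198687 on the minus strand.

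Gng7: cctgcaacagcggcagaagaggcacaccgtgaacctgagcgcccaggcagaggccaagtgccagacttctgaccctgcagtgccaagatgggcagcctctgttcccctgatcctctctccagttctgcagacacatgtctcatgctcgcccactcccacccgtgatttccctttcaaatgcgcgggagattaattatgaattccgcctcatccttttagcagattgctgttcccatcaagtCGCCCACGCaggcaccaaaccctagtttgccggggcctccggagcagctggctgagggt

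Gnao1: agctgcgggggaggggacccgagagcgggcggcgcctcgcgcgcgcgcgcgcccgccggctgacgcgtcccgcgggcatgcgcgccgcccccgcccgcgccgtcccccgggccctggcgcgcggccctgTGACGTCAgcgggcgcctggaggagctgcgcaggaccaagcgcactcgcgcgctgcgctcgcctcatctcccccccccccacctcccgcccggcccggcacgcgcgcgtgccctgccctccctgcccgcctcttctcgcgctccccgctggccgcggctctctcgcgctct

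GCGTGGGCG occurred in 1 of the 61 member promoters (1.64%) and in 0.949% of the 6322 promoters of genes with a tested probe. TGACGTCA occurred in 1 of 61 (1.64%) and in 3.43% of the 6322, and the shares among all 33469 promoters were 0.544% and 1.83%. The median GC content was 65.33% for the member promoters and 61% for those of genes with a tested probe, and the quartiles were 55% and 70.33% for the former and 54.67% and 67.33% for the latter. These matches describe letters in the window only.

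The other gamma subunits measured were Gng10, Gng11 and Gng12. Gng11, a gamma subunit of many tissues, was 6.99, 6.80, 6.89 and 6.94 on the saline arrays and 6.90, 6.29, 6.51, 6.42 and 5.44 on METH arrays 1 to 5. Its groups overlapped through METH array 1, and METH array 5 was lowest. The log2 fold change was -0.59 ± 0.23 SE (adjusted p = 0.371), and -0.37 without METH array 5. It was -0.31 within slide 1 and -0.80 within slide 2. Gng10 was at -0.26, and at -0.057 without METH array 5, its lowest array, and Gng12 was at 0.021. Among the beta subunits, which join a gamma subunit and signal with it, Gnb1 was at 0.13, Gnb2 at -0.059 and Gnb5 at -0.18. The interval for Gnb1 ran from -0.17 to 0.42, and its value without METH array 5 was 0.027.

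Of the alpha subunits that raise cyclic AMP, Gnal passed the filter and Gnas did not. Gnal, which encodes the alpha subunit of Golf, was 9.30, 8.89, 9.10 and 8.69 on the saline arrays and 8.71, 9.20, 8.69, 8.53 and 7.60 on METH arrays 1 to 5. The groups overlapped, with METH array 2 next to the highest saline array and METH array 5 far below all others. The log2 fold change was -0.45 ± 0.26 SE (interval -1.01 to 0.11, adjusted p = 0.561). It was -0.21 without METH array 5 and -0.61 without METH array 2, so single arrays moved its size. Slide 1 alone gave -0.13 and slide 2 alone gave -0.63. Of the 2 Gnas probes, one was above background on 2 METH arrays and 1 saline array, and the other on 1 and 2. The probe of Adcy1, a calcium-stimulated cyclase, was above background on no array.

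Alpha subunits of the Gi class had mostly positive differences, 4 of 5, with a median of 0.30, but without METH array 5 these were 3 of 5 and 0.074. Gnaz, which encodes Gz, a Gi class subunit found mainly in neurons, was 9.28, 9.30, 9.23 and 9.59 on the saline arrays and 9.65, 9.43, 9.87, 9.87 and 10.13 on METH arrays 1 to 5. Every METH array was above the saline mean of 9.35, and METH array 2 was below saline array 4. METH minus saline came to 0.44 ± 0.15 SE (interval 0.12 to 0.76, adjusted p = 0.276). It was 0.36 without METH array 5 and 0.53 without METH array 2 (adjusted p = 0.073), and 0.25 within slide 1 and 0.56 within slide 2. Gnai3, another Gi alpha subunit, had a log2 fold change of 0.31 ± 0.14 SE (adjusted p = 0.427) and was above the saline mean on every METH array. Gnai1 was at 0.30, and at 0.074 without METH array 5, where it was highest. Gnao1, the abundant Go subunit of brain, was at 0.089, and Gnai2 was at -0.16. The alpha subunits of the remaining classes lay near 0, with Gnaq at 0.17, Gna12 at 0.10 and Gna11 at 0.090. All 3 were positive, but 2 of 3 were without METH array 5.

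The 4 adenylyl cyclases among the members had log2 fold changes from 0.0019 (Adcy3) to 0.33 (Adcy2), and none passed. All 4 were positive, and 3 of 4 were without METH array 5. Adcy2, a cyclase that G protein beta and gamma subunits stimulate, was 9.96, 10.24, 10.004 and 10.46 on the saline arrays and 10.24, 10.01, 10.50, 10.65 and 11.08 on METH arrays 1 to 5. Its high end was METH array 5, and METH arrays 1 and 2 lay among the saline arrays. On the log2 scale the difference was 0.33 ± 0.20 SE (adjusted p = 0.574), 0.18 without METH array 5 and 0.45 without METH array 2. Within slide 1 it was 0.021 and within slide 2 it was 0.51. Calcium-stimulated Adcy8 was at 0.26 and Adcy4 at 0.094.

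No protein kinase A subunit passed, and the largest difference in size was that of Prkar2b. Both catalytic subunits lay close to 0, Prkaca at -0.017 (interval -0.27 to 0.23) and Prkacb at -0.068 (interval -0.35 to 0.21). Their sign turned under some settings, for Prkaca to 0.25 and for Prkacb to 0.15 in values without scaling between arrays (called unscaled below), where the median of all probes was at 0.23. Prkar2b, the regulatory subunit that predominates in brain, was 10.07, 10.10, 9.93 and 10.32 on the saline arrays and 9.69, 10.09, 9.39, 9.59 and 10.07 on METH arrays 1 to 5. METH arrays 2 and 5 lay among the saline arrays, while METH arrays 1, 3 and 4 lay below all of them. Its log2 fold change was -0.34 ± 0.16 SE (adjusted p = 0.463), and -0.42 without METH array 5. Prkar1a, the regulatory subunit found in all tissues, was at 0.20 ± 0.14 SE.

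Of the 15 probes with a phosphodiesterase symbol, 7 had positive and 8 negative differences, and the median was -0.060. Pde6d, which carries prenylated proteins between membranes and does not itself break down cyclic nucleotides, was 8.91, 8.96, 9.01 and 9.02 on the saline arrays and 8.55, 8.65, 8.65, 8.86 and 8.25 on METH arrays 1 to 5. All METH arrays were below all saline arrays. The fitted difference was -0.39 ± 0.13 SE (adjusted p = 0.277), -0.30 without METH array 5, and -0.13 in unscaled values. Pde9a, which breaks down cyclic GMP, was at -0.29 ± 0.13 SE (adjusted p = 0.429) and below the saline mean on every METH array. Pde2a, a cyclic GMP-stimulated enzyme, was below the saline mean on every METH array too, with a difference of -0.18. Pde7b, a cyclic AMP-specific enzyme expressed in striatum, was 5.49, 5.29, 5.30 and 5.69 on the saline arrays and 5.89, 5.96, 5.63, 5.57 and 5.49 on METH arrays 1 to 5. It was dim, above background on 3 of 4 saline and 5 of 5 METH arrays, and its groups overlapped. This amounted to a log2 fold change of 0.26 ± 0.14 SE (adjusted p = 0.529). Of the cyclic AMP-specific Pde4 genes, Pde4a was at 0.19 (0.058 without METH array 5), Pde4b at -0.10 and Pde4d at 0.14. Pde12, whose product degrades oligoadenylates, and Pde6h, an inhibitory subunit known from cone photoreceptors, were at -0.19 and -0.30. The remaining phosphodiesterases, Pde1a, Pde3b, Pde5a, Pde7a, Pde8b and Pde11a, lay between -0.20 (Pde8b) and 0.20 (Pde7a).

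Phospholipase C beta was represented by Plcb1, which releases diacylglycerol and inositol trisphosphate, at 0.15 ± 0.14 SE. Of the 7 measured protein kinase C genes, 5 had positive and 2 negative differences, and without METH array 5 the counts turned to 2 and 5. Prkch, a calcium-independent isoform, was 8.25, 7.80, 8.22 and 8.14 on the saline arrays and 7.43, 7.57, 6.71, 7.49 and 7.72 on METH arrays 1 to 5. No METH array reached the lowest saline array, and METH array 3 stood below the rest. METH minus saline came to -0.72 ± 0.19 SE (interval -1.14 to -0.29, adjusted p = 0.182). It was -0.55 without METH array 3, -0.80 without METH array 5, -0.52 within slide 1 and -0.88 within slide 2. With 1 array left out the limma adjusted p of Prkch ranged from 0.086 to 0.503. Prkcd, another calcium-independent isoform, was at -0.51 ± 0.32 SE, but its saline arrays alone spanned 6.10 to 7.98, and it was -0.24 without saline array 1 and -0.87 without saline array 4. Prkce was at 0.33 ± 0.19 SE (adjusted p = 0.549). The calcium-dependent isoforms Prkca and Prkcb were at 0.14 and 0.055, the latter with an interval of -0.25 to 0.36. Prkcz and Prkcq were at 0.12 and 0.096.

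Calmodulin-dependent kinases had a median of 0.046 over 11 members. Camkv, a kinase-like vesicle protein without kinase activity, was 7.71, 7.68, 7.80 and 7.63 on the saline arrays and 7.13, 7.24, 7.52, 7.50 and 7.59 on METH arrays 1 to 5. The groups did not overlap, and METH array 5 and saline array 4 came closest. On the log2 scale the difference was -0.31 ± 0.13 SE (adjusted p = 0.422), -0.51 within slide 1 and -0.18 within slide 2, and -0.060 in unscaled values. Camk2a, which encodes the main CaMKII subunit of excitatory synapses, was 6.47, 6.88, 6.33 and 6.52 on the saline arrays and 6.76, 6.70, 6.69, 6.90 and 6.85 on METH arrays 1 to 5. Saline array 2 lay within the METH range and the other saline arrays lay below it. Its log2 fold change was 0.23 ± 0.14 SE (adjusted p = 0.573). Camk2b was at -0.017 (interval -0.35 to 0.31), Camk2g at 0.10, Camk2d at 0.032 and Camk4, a nuclear kinase that acts on CREB, at 0.30 ± 0.22 SE. Without METH array 1, its highest array, Camk4 was at 0.11. The other kinases of this family, Camk1, Camk1d, Camk1g and the upstream kinases Camkk1 and Camkk2, lay between -0.24 (Camk1d) and 0.12 (Camk1). Both genes for inhibitor proteins of CaMKII had positive differences. Camk2n1 was 12.12, 12.29, 12.06 and 12.51 on the saline arrays and 12.66, 12.28, 12.55, 12.85 and 12.43 on METH arrays 1 to 5, with a log2 fold change of 0.31 ± 0.15 SE (adjusted p = 0.47). Every METH array was above its saline mean of 12.24. Camk2n2 was at 0.29 ± 0.20 SE, and METH array 5, at 5.66, was the lowest of its 9 arrays. Without it the difference was 0.46.

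Calcineurin, the calcium-dependent phosphatase, has catalytic and regulatory subunits. The catalytic subunit gene Ppp3ca was 13.55, 13.26, 13.37 and 13.15 on the saline arrays and 13.24, 13.12, 12.76, 12.94 and 12.72 on METH arrays 1 to 5. The groups overlapped through METH array 1 and saline array 4, and every METH array was below the saline mean. The fitted difference was -0.38 ± 0.15 SE (interval -0.69 to -0.06, adjusted p = 0.367), and -0.32 without METH array 5. The other catalytic subunit gene, Ppp3cb, was at 0.27 ± 0.18 SE (adjusted p = 0.616) and at 0.14 without METH array 5. The regulatory subunit gene Ppp3r1 was at 0.00053 (interval -0.27 to 0.27). The symbol rule also took in Camkmt, a calmodulin methyltransferase, at -0.15 and Prkcsh, a subunit of glucosidase II in the endoplasmic reticulum, at -0.096.

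**Figure D3:**
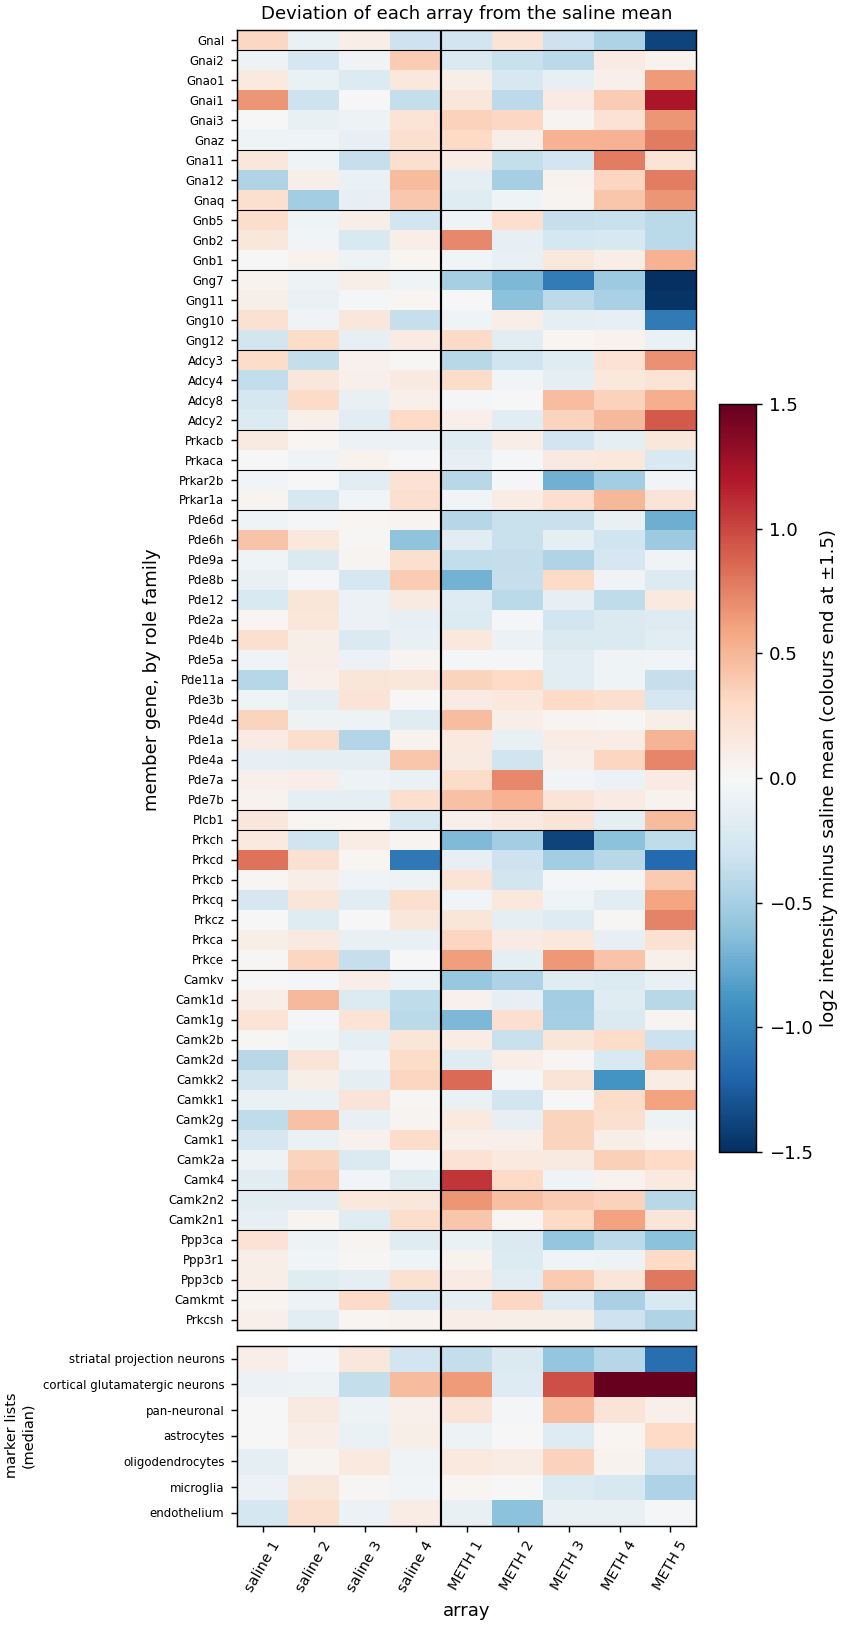
Normalized log2 intensity minus the saline mean, as colour, on each array (columns) for the 65 members by role family (upper rows) and as the median of each marker list (lower rows). METH array 5 has the strongest colours, blue for Gng7, Gng11, Gnal and the striatal markers and red for the cortical markers, whose medians there are -1.13 and 1.98.

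The 3 genes of these families that the rule left out were measured as well. Pde10a, a phosphodiesterase of striatal projection neurons, was at -0.38 ± 0.18 SE, Adcy5, their main cyclase, at -0.35 ± 0.18 SE, and Pde1b, a calmodulin-dependent phosphodiesterase, at -0.35 ± 0.16 SE (adjusted p = 0.479, 0.507 and 0.469). None passed, and all 3 had a lower METH mean, with Pde10a below its saline mean on 3 of 5 METH arrays, Adcy5 on 4 and Pde1b on 5.

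Partners of these enzymes were followed in 3 lists. The list for cyclic AMP and protein kinase A held 26 tested genes, among them Pde10a, Adcy5 and Pde1b, given above. Of these 26, 1 passed, and it rose. This was Crem, a CREB family repressor that cyclic AMP induces. Its brighter probe was 7.03, 6.90, 7.04 and 6.55 on the saline arrays and 8.84, 9.24, 8.58, 8.30 and 7.83 on METH arrays 1 to 5. All METH arrays were above all saline arrays, and the log2 fold change was 1.68 ± 0.24 SE (adjusted p = 0.0044). Its second probe gave 1.47 but was above background on no saline array, so that value is of uncertain size. The median of this list was 0.046. In the same list Ppp1r1b, which encodes the protein kinase A target DARPP-32, was at -0.65 ± 0.26 SE (limma adjusted p = 0.386), and at -0.51 by a second probe. Ppp1r1b is also among the striatal markers above. By its brighter probe METH array 5 was lowest, at 10.35, with the other METH arrays between 11.49 and 11.85. Arpp21, a further protein kinase A target of striatum, was at 0.63 ± 0.19 SE (limma adjusted p = 0.229). Of 24 calcium and calmodulin partners none passed, and the median was 0.054. The smallest p belonged to Hpcal4, a neuronal calcium sensor, at -0.58 ± 0.15 SE (adjusted p = 0.163), and to Vsnl1, another one, at 0.64 ± 0.19 SE (adjusted p = 0.223). Of 18 tested genes for diacylglycerol metabolism and effectors, receptor kinases and other regulators, which held no arrestin, none passed, and the median was 0.076. Grk2, a kinase that turns off receptors, had the smallest p of these, at 0.51 ± 0.21 SE (adjusted p = 0.383).

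**Figure D4:**
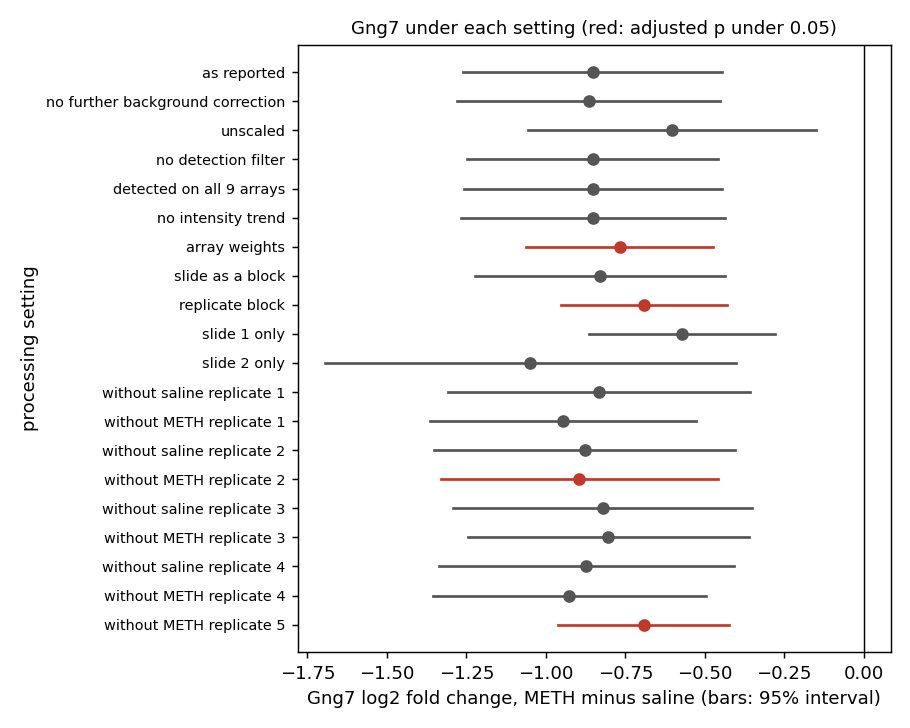
Log2 fold change of Gng7 (x axis, METH minus saline, with 95% intervals as bars) under each processing setting and with each array left out in turn (y axis). All estimates lie below 0, from -1.05 to -0.57, and the 4 settings in red had an adjusted p under 0.05.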

How the data were processed

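RNA from the nucleus accumbens was measured on Illumina beadchips. Per the submitters' processing notes the software was BeadStudio, whose version is not given in the sources used here. The deposited intensity had a background subtracted, since it falls below 0, and had no scaling across arrays, since medians differ. The deposited detection p-value of each probe is low for bright probes on the 9 arrays at 1 h. The 23 arrays of the later run were not used here, because their rows did not pair with the probe IDs in an earlier analysis of these data. Genome build and annotation of the array were not given in the sources used here, and gene names came from the platform annotation (1 name for 13793 probes, none for 8730).

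The 9 arrays were normalized with neqc in limma 3.58.1 (R 4.3.3), a normexp background correction guided by the detection p, with an offset of 16, a log2 step and quantile scaling. The 9987 probes above background (detection p under 0.05) on 4 or more of the 9 arrays entered lmFit and a two-sided eBayes test with the intensity trend. P-values were adjusted over all of them with Benjamini-Hochberg at a threshold of 0.05. Errors are SE of the fit or SD over arrays, as stated. One brightest probe stood for each gene of the partner and marker lists. Members, gene lists, alternatives and named genes were all chosen with earlier results of these data known. The rule for naming took members past the threshold, the 12 smallest p, and the highest and lowest difference of each role family. It also took a set of genes known from striatum whatever their values, and at most 3 partner genes of smallest p per list. Other genes were picked with their values in view. The fit was tested on simulated data. Alternatives were other background correction, scaling, filters, trend and weights, blocks, single slides and arrays left out. In the alternatives without neqc, intensities under 16 were set to 16.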

Additional observations from a re-analysis of the deposited data

Results flagged for a closer look

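Among 66 sets of values (33 named members, METH and saline separately), 2 held an array far from the others of its group by Dixon's test, where chance gives about 5%. Prkch stood at 6.71 on METH array 3, with the other METH arrays between 7.43 and 7.72. Camk2n2 stood at 5.66 on METH array 5, with the others between 6.42 and 6.73. METH array 5 was also the array with the lowest median of striatal markers, at -1.13.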

How the results depend on the processing

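Of the 59 members that could be run under all 19 alternatives, 26 kept the sign of their difference in each. Of the 6 run under 18, 3 kept it. The other 36 turned in at least 1, 15 of them in 1 only. The alternatives in filter and in trend change the test but not the difference, so no sign could turn in them. Members past the threshold numbered 0 as reported and 1 in unscaled values (Gnaz, 0.71, limma adjusted p = 0.028). With array weights they numbered 2 (Gng7, -0.77, limma adjusted p = 0.013, and Prkch, -0.85, limma adjusted p = 0.03). The lowest weight was that of METH array 5, at 0.256, and the others ran from 0.676 (METH array 2) to 2.04 (saline array 3). Over the fits that left out 1 array each, 0 to 1 members passed. Replicate numbers are shared between METH and saline, but deviations of same-numbered arrays correlated at 0.072, 0.095, 0.08 and 0.247, so they were not taken as pairs. With the replicate block over arrays 1 to 4 of each group, 81 probes passed (68 higher, 13 lower), 1 of them a member (Gng7, -0.69, adjusted p = 0.036), and Gng7 had nearly the same value without METH array 5, which this block also leaves out. The count of all probes past the threshold was 52, and it was 225 in unscaled values (224 higher, 1 lower), 251 with array weights (159 and 92), 16 within slide 2, and 31 to 250 with 1 array left out (31 without saline array 2, 33 without saline array 3 and 250 without METH array 2, of which 186 higher and 64 lower). The causes were not tested. Unscaled values keep the higher mean intensity of the METH arrays, and the median of all probes moved there from -0.023 to 0.23. The member median went to 0.31 there, 0.077 above that of all probes, against 0.069 above as reported. The member median was -0.042 within slide 1 and -0.0094 to 0.071 with 1 array left out. Of the 36 members whose sign turned, 30 had a difference under 0.2 in size. The other 6 were Gnai1 and Adcy8, which turned within slide 1, Camk2n2, which turned within slide 2, and Gng10, Camk1g and Pde8b, which turned in unscaled values. Among members named by the rule, those that turned in unscaled values were Gnb5 (0.081), Gnai2 (0.059), Prkaca (0.25), Prkacb (0.15), Pde4b (0.16) and Camk2b (0.22). With array weights they were Prkaca (0.0303), Adcy3 (-0.12) and Camk2b (0.12), and with the replicate block Prkaca (0.035), Adcy3 (-0.17), Camk2b (0.058) and Prkcb (-0.0297). Within slide 1 they were Gnb1 (-0.091), Gna11 (-0.18), Adcy3 (-0.31) and Prkcb (-0.10). Within slide 2 they were Camk2n2 (-0.062), Gng12 (-0.0101), Prkacb (0.0088) and Camk2b (0.021). Adcy3 was also at -0.00023 without further background correction and -0.034 with slide as a block. With 1 array left out, values ranged from -0.072 to 0.11 for Gng12, -0.0802 to 0.20 for Gna11, -0.063 to 0.036 for Prkaca, -0.17 to 0.11 for Adcy3, -0.092 to 0.0598 for Camk2b and -0.032 to 0.14 for Prkcb. The median half-width of the members' 95% intervals was 0.36.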
